A study of Solanum pimpinellifolium with 6 samples.

Results

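Subtilisin-like serine proteases and aspartic proteases were followed in young tomato fruits, as 182 of the 34723 genes with values in the deposited table. Membership was set by words in the deposited gene descriptions (subtilisin, aspartic proteinase or protease, aspartyl protease, nepenthesin), leaving out inhibitors, and the rule itself uses no measured value. The subtilisin family held 98 genes, of which 97 list a subtilisin-related peptidase S8 domain. The aspartic family held 84 genes, of which 78 list a peptidase A1 domain. By description, the aspartic genes were 43 nepenthesins, 27 aspartyl proteases, 6 nucellin-like genes, 6 genes described as aspartic proteinase with no further type, and 2 aspartic proteinase-like genes.

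Subtilisin-like proteases of plants, also called subtilases, are made as precursors, pass through the secretory pathway and mostly act in the cell wall space. In Arabidopsis, some of them release peptide hormones from their precursors, and others act on pectin methylesterases. In tomato, the P69 subtilases are known from infected leaves, where several accumulate. Plant aspartic proteases cut proteins at acid pH. The typical ones are vacuolar enzymes with a plant-specific insert, while nepenthesins take their name from the digestive fluid of pitcher plants and nucellins from the barley nucellus. The identifiers below were not matched to P69 names or to single enzymes of the literature, and roles are given only as far as the deposited descriptions go.

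RNA was sequenced from fruits at 2 days post anthesis, taken from hand-pollinated flowers of the wild currant tomato Solanum pimpinellifolium LA1589. Of the 6 libraries, 3 are labelled RNAi line 207, a single transgenic line, and 3 are labelled as its nontransgenic sibling, with a wild type genotype. All plants are given as two-months old and share the LA1589 background, and neither the promoter that drives the RNAi nor any pooling of fruits is given in the sources used here. The series title names the zinc finger gene SlZFP2 as the gene under study. The series design gives line 207 defects in fruit set and in making abscisic acid, and calls the libraries biological replicates.

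The libraries labelled line 207 did not show less of the gene that the RNAi would lower. SlZFP2 (Solyc07g053570) was at 10.3, 9.03 and 7.45 FPKM in them, against 2.89, 3.05 and 0.00147 FPKM in those labelled sibling, and did not pass the test (limma, adjusted p = 0.112). The direction of these values is opposite to the one the labels would give, but the difference did not pass. Whether the labels are right was not tested, so directions are given between labels only. FPKM counts fragments per length of the gene and per sequencing depth. Depth as such is unknown, but steps between low values put the libraries labelled line 207 at 0.384, 0.5 and 0.781 of the depth of sibling replicate 1, and the other siblings at 0.801 and 0.86. One protocol label names shoot tips where the sample labels name fruits. The carpel identity gene described as AGAMOUS (Solyc02g071730) was detected in every library, at 60.6, 64.5 and 90.6 FPKM in labelled line 207 and 16.7, 21.9 and 24.4 FPKM in labelled siblings.

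Of the 98 subtilisin genes 35, and of the 84 aspartic genes 24, were listed at 0 in all 6 libraries, as were 12373 of all 34723 genes. In single libraries, 81 to 85 of the 182 genes reached 1 FPKM in labelled line 207 and 81 to 88 in labelled siblings. The test took genes with 1 FPKM or more in at least 3 libraries, which left 43 subtilisin and 45 aspartic genes, while the other 94 were not tested. Of the 88 tested, 3 stayed under 1 FPKM in every library of 1 label, so they entered the test only through the other label (Solyc01g087770, Solyc02g080880 and Solyc06g009110).

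Between the labels, 12 of the 88 tested proteases changed (limma on log2(FPKM + 1), Benjamini-Hochberg adjusted p at most 0.05 over all 15766 tested genes). This is 13.6%, beside 10.1% of all tested genes. Of these, 7 were higher and 5 lower in labelled line 207, where 5.01% of all tested genes were higher and 5.04% lower. The subtilisin family gave 3 higher and 3 lower genes, and the aspartic family 4 higher and 2 lower. Of the 4 higher aspartic genes, 2 (Solyc02g080880 and Solyc06g009110) entered the test only through labelled line 207, so their calls are descriptions. The called shares are near the background, so the counts are no result about the families. In bulk tissue, fewer cells of a type and less RNA per cell cannot be told apart.

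**Figure D1:**
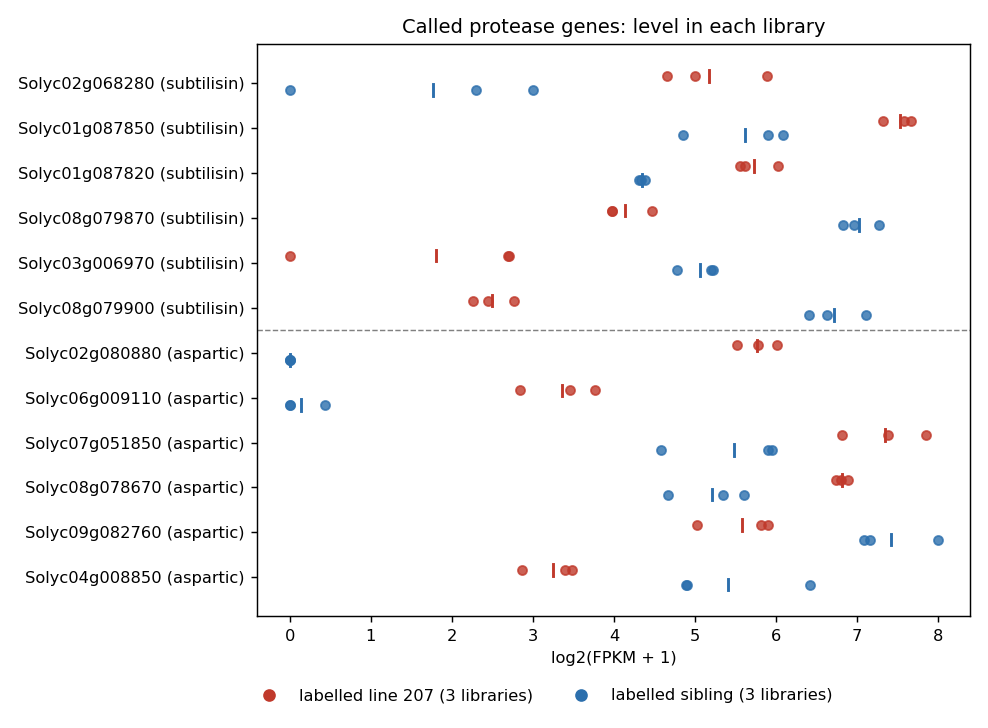
Level of the 12 called protease genes in each library, as log2(FPKM + 1), with the subtilisin family above the dashed line and the aspartic family below it. Points are libraries and short bars are group means; in each gene the 3 libraries labelled line 207 (red) and the 3 labelled sibling (blue) do not overlap.

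A pair of subtilisin genes that lie close together by identifier had the lowest adjusted p of the decreases. Solyc08g079900 had 5.78, 4.47 and 3.79 FPKM under the line 207 label, against 84.1, 137 and 98.1 FPKM under the sibling label. The labels were far apart, and the sibling mean was 22.7 times the line 207 mean (log2 fold change -4.23 ± 0.28 (SE), limma adjusted p = 0.000983). Solyc08g079870 had 21.1, 14.7 and 14.7 FPKM under the line 207 label, against 124, 153 and 113 FPKM under the sibling label. Here the sibling mean was 7.72 times the line 207 mean (log2 fold change -2.88 ± 0.22 (SE), limma adjusted p = 0.00168). In labelled siblings these were among the more abundant transcripts, at ranks 1235 and 999 of all genes by mean level, and in labelled line 207 they stood at ranks 11776 and 6352. Both calls held whichever library was left out.

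These genes belong to a run of 17 subtilisin genes with neighbouring identifiers on chromosome 8 (Solyc08g079840 to Solyc08g080010), of which 16 have a tomato protein as best match in the deposited description. Tomato identifiers number genes along each chromosome, and a run here joins members whose numbers differ by at most 50 from one to the next. Of the 17 genes 8 were at 0 in every library and 7 were tested. All 7 had a negative log2 fold change, as had 54% of all tested genes. The median of the 7 was -1.35, beside -0.09 over all tested genes. The 2 genes above were the calls (28.6%, beside 10.1% of all tested genes), and the other 5 did not pass. For 5 of the 7 the labels did not overlap, all lower in labelled line 207, where 17.6% of all tested genes lay that way without overlap. Solyc08g079860 averaged 1.4 ± 0.611 FPKM in labelled line 207 and 6.67 ± 1.16 FPKM in labelled siblings (SD, n = 3 each; limma adjusted p = 0.0708). Solyc08g079890 averaged 8.8 ± 1.58 FPKM in labelled line 207 and 11.6 ± 3.45 FPKM in labelled siblings (SD, n = 3 each; limma adjusted p = 0.619), the smallest difference of the 7. The sum over the run was 51.5, 39.1 and 37.9 FPKM in labelled line 207, against 267, 328 and 244 FPKM in labelled siblings. Genes of such a run can be near copies, and the deposited estimates may divide reads among them, so the split within a run is less certain than its sum.

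A second run, of 11 subtilisin genes on chromosome 1 (Solyc01g087740 to Solyc01g087850), had log2 fold changes on both sides of 0. All 11 have a tomato protein as best match and 9 were tested, of which 5 had a positive and 4 a negative log2 fold change. Solyc01g087850 had 190.5, 202.5 and 159 FPKM under the line 207 label, against 27.8, 66.9 and 59 FPKM under the sibling label. It was the most abundant subtilisin gene in labelled line 207, 3.59 times the sibling mean (log2 fold change 1.91 ± 0.33 (SE), limma adjusted p = 0.0164). This call was lost without line 207 replicates 1 or 2 (limma adjusted p up to 0.0656). Solyc01g087820 had 46.2, 64.1 and 48 FPKM under the line 207 label, against 19.2, 19.9 and 18.9 FPKM under the sibling label. It rose 2.73-fold (log2 fold change 1.39 ± 0.21 (SE), limma adjusted p = 0.0103), and the call held whichever library was left out.

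The other genes of the chromosome 1 run lay on both sides without passing. Solyc01g087780 had 23, 16 and 21.1 FPKM under the line 207 label, against 69, 47.1 and 26 FPKM under the sibling label (limma adjusted p = 0.109; q = 0.000439 in the authors' deposited table). Solyc01g087770 was listed at 0 in all 3 libraries labelled line 207, against 3.37, 4.14 and 1.29 FPKM in labelled siblings (limma adjusted p = 0.0625). Its neighbour Solyc01g087790 averaged 16.6 ± 2.93 FPKM in labelled line 207 and 6.9 ± 4.29 FPKM in labelled siblings (SD, n = 3 each; limma adjusted p = 0.142). Solyc01g087840 and Solyc01g087740, both under 5 FPKM in every library, gave log2 fold changes of 0.32 and -0.42. The sum over this run was 293, 316 and 264 FPKM in labelled line 207, against 156, 161 and 117 FPKM in labelled siblings. The sums thus lay on opposite sides in the runs of chromosomes 1 and 8.

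**Figure D2:**
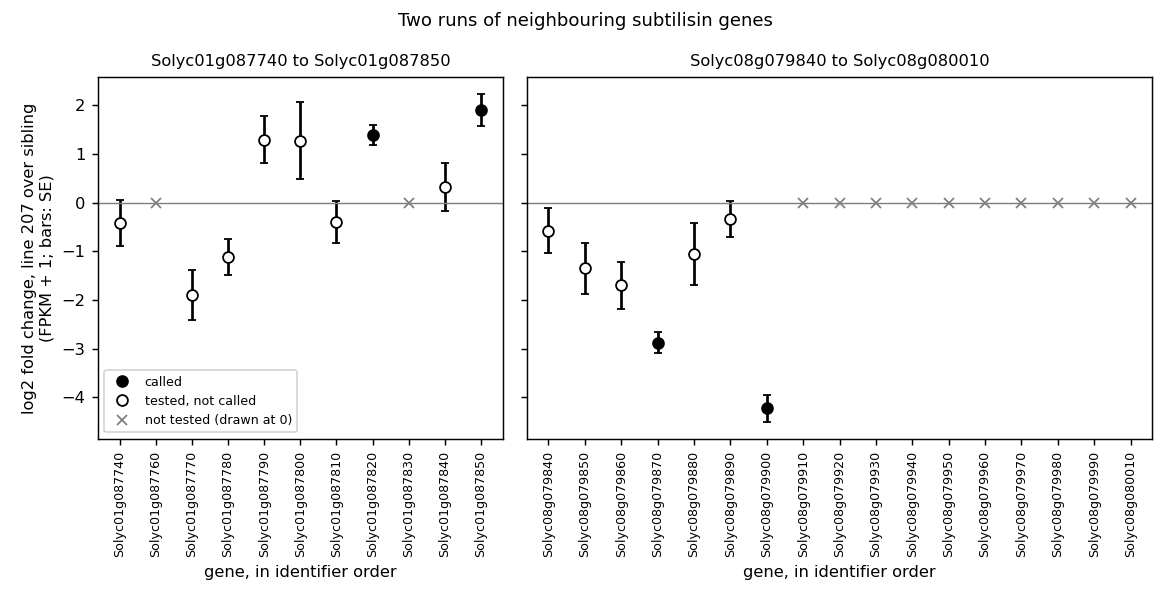
Log2 fold change (labelled line 207 over labelled sibling, on FPKM + 1) with its SE for the subtilisin genes of the runs on chromosome 1 (left) and chromosome 8 (right), in identifier order. Filled points passed the test and crosses, drawn at 0, were not tested; all 7 tested genes on the right lie below 0, while the 9 on the left fall on both sides.

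The makeup of the subtilisin family changed more than its total. The family sum was 878, 832 and 824 FPKM in labelled line 207, against 1080, 1078 and 885 FPKM in labelled siblings. The chromosome 1 run made up 33.4%, 38% and 32% of that sum in labelled line 207, against 14.4%, 14.9% and 13.2% in labelled siblings. Within that, the called Solyc01g087850 alone made up 21.7%, 24.3% and 19.3% in labelled line 207, against 2.57%, 6.21% and 6.66% in labelled siblings. The chromosome 8 run made up 5.87%, 4.69% and 4.6% in labelled line 207, against 24.8%, 30.4% and 27.5% in labelled siblings. Of this, the called Solyc08g079870 and Solyc08g079900 together made up 3.06%, 2.31% and 2.24% in labelled line 207, against 19.2%, 26.9% and 23.8% in labelled siblings. Neither the shares of each run nor the family sums overlapped between labels, but the mean family sum in labelled line 207 was 0.833 of that in labelled siblings, a smaller difference than in either run. The total FPKM of all genes was 0.792 in the same ratio, so relative to that total the family sum was not lower in labelled line 207.

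Solyc07g041970, the most abundant subtilisin gene in labelled siblings, had 127, 129 and 128 FPKM under the line 207 label, against 179, 202 and 169 FPKM under the sibling label. The labels did not overlap, but the log2 fold change of -0.51 ± 0.14 (SE) did not pass (limma adjusted p = 0.0661; the authors' deposited q is 0.027). Solyc03g044150, another of the 5 highest by mean level, averaged 44.3 ± 13.2 FPKM in labelled line 207 and 76.8 ± 28.1 FPKM in labelled siblings (SD, n = 3 each; limma adjusted p = 0.242).

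A pair of single subtilisin genes with values near 0 in 1 library completed the calls. Solyc02g068280 had 58, 24.1 and 31 FPKM under the line 207 label, against 0.003, 3.92 and 7.03 FPKM under the sibling label. It was higher in labelled line 207 (log2 fold change 3.41 ± 0.8 (SE), limma adjusted p = 0.0419). Solyc03g006970, whose description also lists an Orn/DAP/Arg decarboxylase domain, had 9.34e-05, 5.52 and 5.49 FPKM under the line 207 label, against 36.3, 26.5 and 35.7 FPKM under the sibling label. It was lower in labelled line 207 (log2 fold change -3.27 ± 0.76 (SE), limma adjusted p = 0.0404). Both calls were lost in most fits with a library left out: that of Solyc02g068280 without sibling replicate 2 or any 1 library labelled line 207 (limma adjusted p up to 0.122), and that of Solyc03g006970 without any library but line 207 replicate 1 (limma adjusted p up to 0.116). Among subtilisin genes not called, Solyc02g030130 had 0.00369, 1.62 and 0.000124 FPKM under the line 207 label, against 4.85, 3.46 and 4.45 FPKM under the sibling label (limma adjusted p = 0.0819).

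Taken as a family, 28 of the 43 tested subtilisin genes had a negative log2 fold change (65.1%, beside 54% of all tested genes). Their median was -0.42, beside -0.09 for all tested genes. The labels did not overlap for 20 of these genes, 5 higher and 15 lower in labelled line 207. Over all tested genes 33.2% did not overlap, 15.6% higher and 17.6% lower. The authors' deposited table calls 14 subtilisin genes at a q of at most 0.05, 6 higher and 8 lower by the group means. Over all genes with values it calls 7.84%, with 3.53% higher and 4.31% lower.

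**Figure D3:**
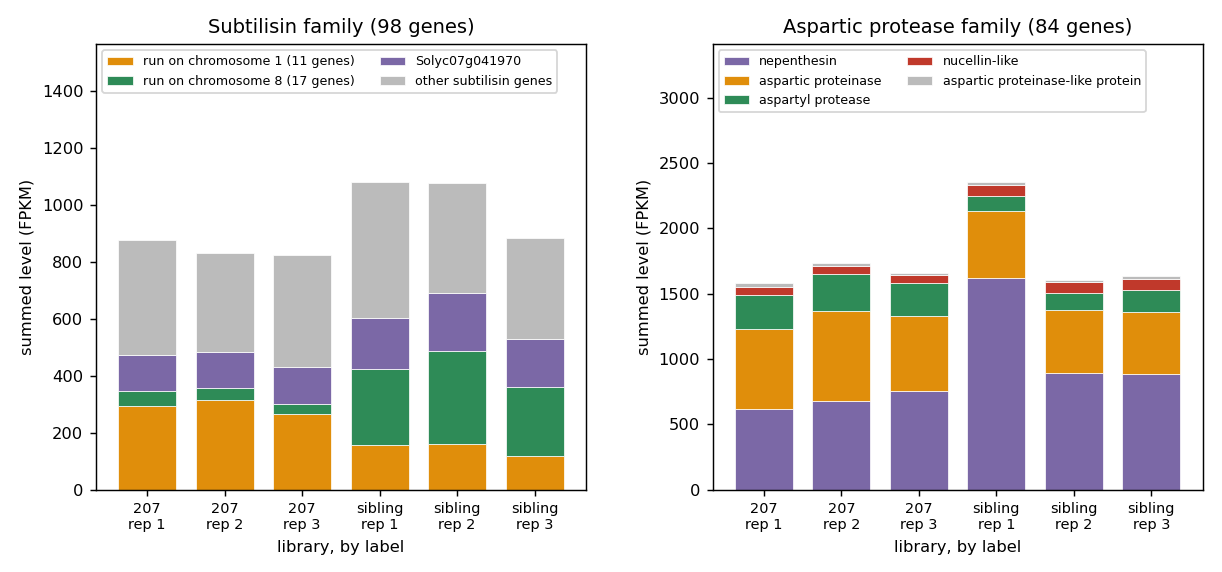
Summed FPKM per library for the subtilisin family (left, split into the runs on chromosomes 1 and 8, Solyc07g041970 and the rest) and the aspartic family (right, split by described type). Under the line 207 label the orange part on the left is larger and the green part smaller than under the sibling label, and the purple nepenthesin part on the right is largest in sibling replicate 1.

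Among aspartic proteases, the 6 genes described simply as aspartic proteinase, all tested, gave 3 of the 6 calls, and moved both ways. This is 50% of few genes, beside 10.1% of all tested genes, and 1 of them entered the test only through labelled line 207. Solyc02g080880 had 53.7, 63.5 and 45 FPKM under the line 207 label, against estimates of 6.42e-11 FPKM or less in all 3 labelled siblings. It entered the test only through the libraries labelled line 207, so its test is given as a description (log2 fold change 5.77 ± 0.39 (SE), limma adjusted p = 0.000983, where the pseudocount of 1 sets the size). The authors' deposited q is 0.366. Solyc07g051850 had 166, 229.5 and 111 FPKM under the line 207 label, against 60.6, 22.9 and 59 FPKM under the sibling label. It was higher by 3.55-fold (log2 fold change 1.87 ± 0.43 (SE), limma adjusted p = 0.0398). None of the 6 fits with a library left out kept this call (limma adjusted p up to 0.118).

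The opposite direction was seen in Solyc09g082760, described as aspartic proteinase 2. It had 58.9, 55.2 and 31.5 FPKM under the line 207 label, against 255, 142 and 135 FPKM under the sibling label. The sibling mean was 3.65 times the line 207 mean (log2 fold change -1.84 ± 0.33 (SE), limma adjusted p = 0.0189), and leaving out line 207 replicate 2, line 207 replicate 3 or sibling replicate 2 ended the call (limma adjusted p up to 0.0566). Its fellow Solyc03g005280 averaged 4.74 ± 3.04 FPKM in labelled line 207 and 12.1 ± 4.72 FPKM in labelled siblings (SD, n = 3 each; limma adjusted p = 0.228). The most abundant aspartic gene by mean over all libraries, Solyc01g101240, had 308, 329 and 372 FPKM under the line 207 label, against 181, 314 and 250 FPKM under the sibling label, with overlapping labels (limma adjusted p = 0.252). Across the 6 genes of this type the sum was 622 ± 57.1 FPKM in labelled line 207 and 492 ± 21 FPKM in labelled siblings (SD, n = 3 each).

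Nucellin-like and aspartyl protease genes gave 1 higher gene each, of 5 and 11 tested (20% and 9.09%, beside 10.1% of all tested genes). The nucellin-like Solyc06g009110 had 6.16, 12.6 and 9.96 FPKM under the line 207 label, against 0.347, 6.73e-08 and 4.74e-05 FPKM under the sibling label. Its log2 fold change was 3.21 ± 0.5 (SE; limma adjusted p = 0.0119). It was under 1 FPKM in every labelled sibling, so it too entered the test only through labelled line 207, and its test is a description. The authors' deposited table gives it a q of 1. The other 4 tested nucellin-like genes had negative log2 fold changes. Of these, Solyc06g018100 had 21.1, 17.1 and 11 FPKM under the line 207 label, against 37.7, 36.7 and 29.1 FPKM under the sibling label, without overlap (limma adjusted p = 0.0654; the authors' deposited q is 0.000439). Solyc08g078670, described as aspartyl protease, had 111, 118 and 106 FPKM under the line 207 label, against 24.5, 39.6 and 47.8 FPKM under the sibling label. It rose 2.99-fold (log2 fold change 1.61 ± 0.26 (SE), limma adjusted p = 0.0129), a call lost without line 207 replicate 2 (limma adjusted p = 0.0544). Solyc02g083460 averaged 58.6 ± 6.54 FPKM in labelled line 207 and 30.2 ± 8.03 FPKM in labelled siblings (SD, n = 3 each), just short of the threshold (limma adjusted p = 0.055). Solyc11g066620, at 39.2, 44.8 and 31.9 FPKM in labelled line 207 and 16, 5.67 and 18.4 FPKM in labelled siblings, also lay higher without passing (limma adjusted p = 0.0638). The summed level of the 27 aspartyl protease genes was 267 ± 16.5 FPKM in labelled line 207 and 136 ± 29.9 FPKM in labelled siblings (SD, n = 3 each). A few abundant genes can set such a sum. Of the 11 tested, 6 had a positive and 5 a negative log2 fold change, with a median of 0.27, beside -0.09 over all tested genes.

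Nepenthesin genes leaned lower in labelled line 207 but gave a single call, or 4.76% of those tested, beside 10.1% of all tested genes. Of 21 tested, 16 had a negative log2 fold change (76.2%, beside 54% of all tested genes). The median was -0.6, beside -0.09 over all tested genes. Solyc04g008850 had 6.28, 9.53 and 10.2 FPKM under the line 207 label, against 84.3, 28.8 and 28.7 FPKM under the sibling label. Its log2 fold change was -2.15 ± 0.47 (SE; limma adjusted p = 0.0324). This call held only without sibling replicate 1 and was lost without each of the other 5 libraries (limma adjusted p up to 0.0924). Solyc01g096450, the most abundant of the type in labelled siblings, had 73, 115 and 129 FPKM under the line 207 label, against 637, 272 and 201 FPKM under the sibling label. The labels did not overlap, and the test missed the threshold (limma adjusted p = 0.0596), while the authors' deposited q is 0.000439. Solyc08g068870 had 0.00887, 4.44 and 12.6 FPKM under the line 207 label, against 30.3, 44.8 and 53.2 FPKM under the sibling label (limma adjusted p = 0.0617). Solyc01g096040 went the other way, at 177, 233 and 215 FPKM in labelled line 207 and 196, 97.9 and 123 FPKM in labelled siblings, with overlap (limma adjusted p = 0.195). The authors' table calls 8 nepenthesin genes, 7 of them lower in labelled line 207, where it calls 4.31% of all genes lower.

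Sibling replicate 1 stood apart within this type. In 7 of the 21 tested nepenthesin genes it was at least 2 times as high as each of the other siblings, where 7.61% of all tested genes were. For Solyc12g087940 the siblings were at 185.5, 51.3 and 58 FPKM, and for Solyc04g076190 at 36.3, 5.47 and 3.49 FPKM. This pattern was noticed after the values were seen. The summed nepenthesin level was 615, 682 and 757 FPKM in labelled line 207, against 1616, 891 and 886 FPKM in labelled siblings. The sibling mean was 1.65 times the line 207 mean with all libraries and 1.3 times without sibling replicate 1. For the total FPKM of all genes, with all libraries, it was 1.26 times, which compares with the 1.65 and not with the 1.3. Among the siblings that total was lowest in replicate 1 (1054762 FPKM, against 1065660 and 1179445 FPKM).

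**Figure D4:**
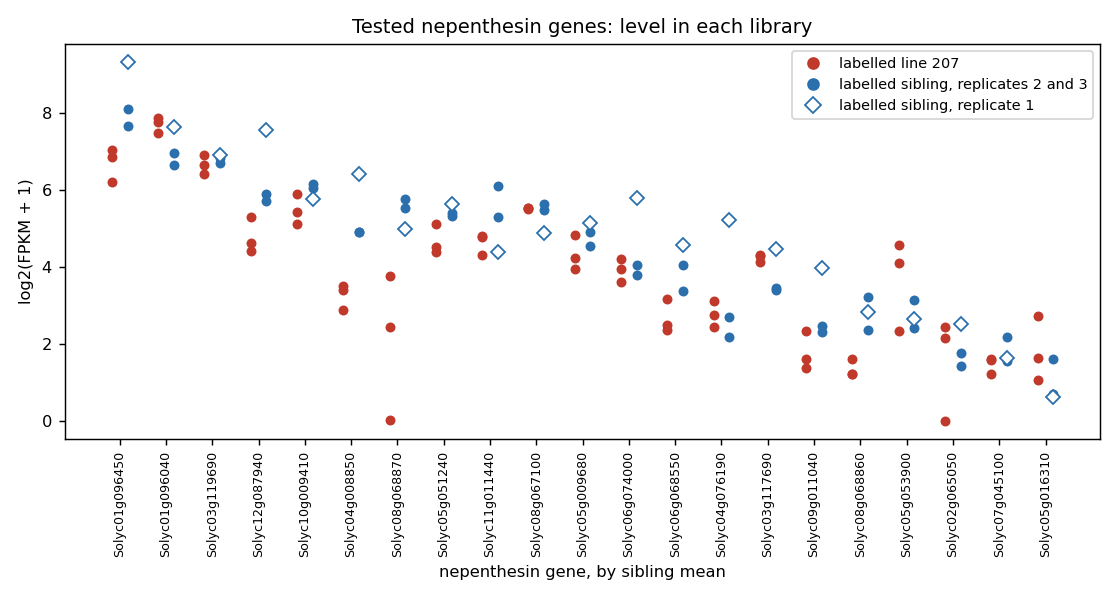
Level of the 21 tested nepenthesin genes in each library, as log2(FPKM + 1), ordered by the sibling mean. Open diamonds mark sibling replicate 1, which lies at least 2 times above both other siblings (filled blue) in 7 genes; libraries labelled line 207 are in red.

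Over the whole aspartic family, 27 of 45 tested genes had a negative log2 fold change (60%, beside 54% of all tested genes), with a median of -0.22 beside -0.09. The labels did not overlap for 18 of the 45, 6 higher and 12 lower, where 15.6% of all tested genes were higher and 17.6% lower without overlap. The family sum was 1584, 1734 and 1661 FPKM in labelled line 207, against 2353, 1602 and 1634 FPKM in labelled siblings, and these ranges overlapped. Of the 84 aspartic genes the authors' deposited table calls 14, 4 higher and 10 lower by the group means. The same table calls 7.84% of all genes with values, 3.53% higher and 4.31% lower.

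**Figure D5:**
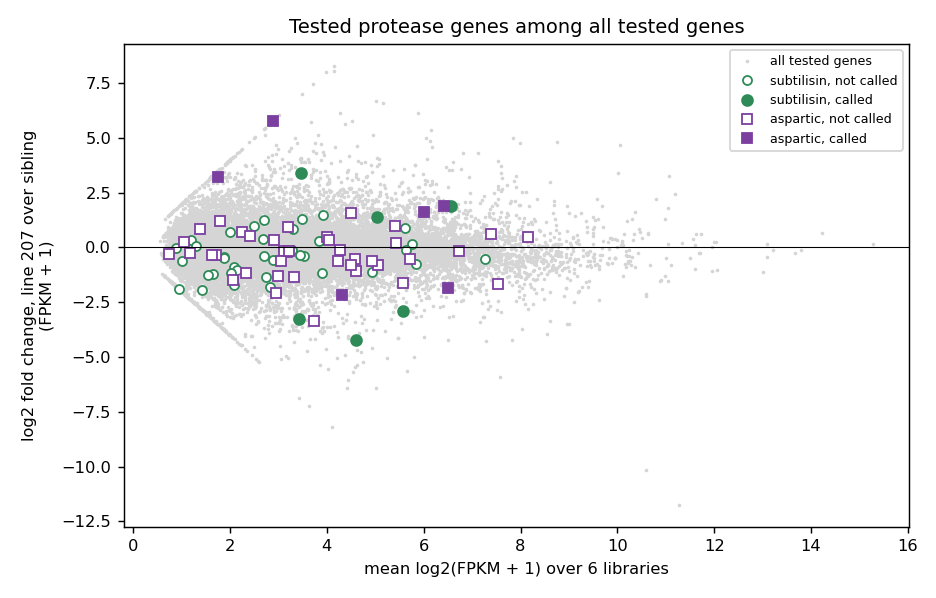
Log2 fold change (labelled line 207 over labelled sibling, on FPKM + 1) against mean level for the 43 tested subtilisin genes (green circles) and 45 tested aspartic genes (purple squares) over all 15766 tested genes (grey). Filled symbols are the 12 called genes, 7 above 0 and 5 below.

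Other genes of proteolysis and possible substrates were counted from lists by description. Of 29 tested cysteine proteases, which include cathepsins and vacuolar processing enzymes, 11 were higher and 5 lower, a called share of 55.2%, beside 10.1% of all tested genes and 13.6% for the subtilisin and aspartic genes together. Of 36 tested proteinase inhibitors 7 were higher and 2 lower (25%). Serine carboxypeptidases, 38 tested, gave 2 higher and 4 lower genes (15.8%), and metalloproteases, 27 tested, gave 0 higher and 1 lower (3.7%). These shares were not tested against each other.

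Peptide precursors and pectin methylesterases, some of which plant subtilases are known to act on, were also counted. Of 14 tested precursors of peptide signals 1 was higher and 2 lower, a called share of 21.4% beside 10.1% of all tested genes. The phytosulfokine precursor gene Solyc10g083580, of a growth-promoting peptide, had 38, 93.2 and 75.2 FPKM under the line 207 label and was listed at 0 in all 3 labelled siblings (limma adjusted p = 0.00168). Solyc07g063030, described as rapid alkalinization factor 2, was listed at 0 in labelled line 207, against 13.1, 5.58 and 11.2 FPKM in labelled siblings (limma adjusted p = 0.0108). Each of these genes entered the test only through the label where it was high, so both tests are given as descriptions. They are 2 of the 3 calls on this list. Of 43 tested pectinesterase genes, whose products remove methyl groups from pectin, 2 were higher and 4 lower (14%), near the share of all tested genes.

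Lists of genes for other tissues, made by words in the descriptions, also differed in their sums between the labels. Green tissue genes (27, of which 24 averaged over 1 FPKM in each label and 1 was at 0 throughout) summed to 4424 to 6161 FPKM in labelled line 207 and 17636 to 25501 FPKM in labelled siblings, highest in sibling replicate 1. Seed genes (59, with 21 over 1 FPKM in labelled line 207, 16 in labelled siblings and 25 at 0 throughout) summed to 6948 to 7732 FPKM in labelled line 207 and 700 to 1441 FPKM in labelled siblings. Pollen and anther genes (40, with 21 and 23 over 1 FPKM in line 207 and sibling, and 7 at 0 throughout) summed to 808 to 852 FPKM in labelled line 207 and 1394 to 1622 FPKM in labelled siblings. Xylem and phloem genes (65, with 32 and 33 over 1 FPKM in line 207 and sibling, and 17 at 0 throughout) summed to 322 to 366 FPKM in labelled line 207 and 590 to 786 FPKM in labelled siblings. Their part in the protease results was not tested. Such words need not mark a tissue, and the seed words also match genes described as protease inhibitor/seed storage/lipid transfer protein. A gene of that description, Solyc07g065110, was called lower in labelled line 207, while the seed sum was higher. Directions of the single genes on these lists are not given here.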

How the data were processed

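RNA of 6 libraries, 3 labelled line 207 and 3 labelled sibling, was sequenced after a stranded mRNA library kit (labels' protocols). The authors deposited FPKM values in 1 table of 34727 rows; that unit is inferred from fractional values and from Cufflinks, listed with TopHat 1.3.2 per the submitters' processing notes, and is not stated. Genome build, annotation and any scaling: not given in the sources used here. Of the rows, 4 without values were left out. The table also holds the authors' p-value and q-value per gene as deposited; the q-value is exactly 1 for 25140 genes, and whether those were tested is not stated. Estimated FPKM can divide reads between near-identical genes, and 45 protease values lay above 0 but under 0.1.

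The fit used limma 3.58.1 (R 4.3.3) and log2(FPKM + 1), with a prior that follows the mean level, on 15766 genes at 1 or more in at least 3 libraries, adjusted by Benjamini-Hochberg and called at 0.05; log2 fold changes on this scale understate low genes. The fit was tested on simulated data. Relative depth is the inverse of the most frequent ratio of values between 0.2 and 3 FPKM to those of sibling replicate 1. Low values are least precise in shallow libraries. Folds are ratios of group means. The members and lists were chosen with earlier results of these data known.

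Genes named are all called members, in each family the 5 next by p and the 5 highest by mean, members near 0 in 1 label only, and the runs with at least 4 tested genes; those outside this rule (Solyc03g005280, Solyc12g087940, Solyc04g076190 and both peptide precursors) were picked after their values were seen, as were the carpel gene and the nepenthesin pattern. SlZFP2 was paired with its identifier from knowledge of the literature. The reference gene table matched 0 identifiers, so no coordinates or sequences are given; chromosomes come from the identifiers. Alternatives tried were other pseudocounts, filters, scalings, the variance prior, the replicate number as a block, the authors' q, and each library left out.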

Additional observations from a re-analysis of the deposited data

How the results depend on the processing

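None of the 25 proteases named by the rule changed direction under an alternative run; the others were not followed. Higher and lower calls, 7 and 5 in the analysis as reported, were 4 and 3 with every gene above 0 tested (aspartic lower 0, subtilisin higher 1; 5.13% of all genes called), 8 and 8 with a mean of at least 10 FPKM (aspartic lower 5; 16 of 46 members, 18.5% of all genes), 5 and 5 without the variance trend (aspartic lower 1; 7.4% of all genes), and 10 and 18 by the authors' q (subtilisin 6 and 8, aspartic lower 10; 7.84% of all genes). With a library left out, higher calls numbered 3 to 7 and lower calls 2 to 4; subtilisin 1 to 3 and 2 to 3, aspartic 2 to 4 and 0 to 2. The fewest members, 5, were called without line 207 replicate 2. Each such fit also has fewer samples, and over all genes the calls were 706 to 1219. The cause of the other changes was not tested.

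The replicate numbers share only a number, since same-numbered libraries had correlations of deviations of -0.0105 to 0.00397. With the replicate block, higher and lower calls were 5 and 3 (aspartic lower 1), beside 894 calls over all genes. Depth limits the low members, and 94 of 182 were not tested.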
